A study of Homo sapiens with 5 samples.

Results

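Peaks that stand in small groups, with 2, 3 or 4 called peaks close together, were examined in the NRF2 ChIP-seq peak lists of BEAS-2B cells. A small group was formed wherever neighbouring peaks of a list had at most 10000 bp between their edges and the resulting run held exactly 2, 3 or 4 peaks, on chromosomes 1 to 22 and X. The list from cells treated with sulforaphane (SFN) held 178 such peaks in 73 groups, out of 1761 peaks on these chromosomes and 1925 in the file. Of the groups, 52 had 2 peaks, 10 had 3 and 11 had 4. The list from vehicle-treated cells held 193 such peaks in 79 groups, out of 2033 on these chromosomes and 2199 in the file, with 54, 15 and 10 groups of 2, 3 and 4. The other SFN peaks on these chromosomes either stood alone (885) or lay in groups of 5 or more (698), and in the vehicle list these numbers were 1277 and 563. Members were thus chosen by their called positions, and the groups and their spacing are a description with no test.

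The cells are labelled BEAS-2B, an established cell line from human bronchial epithelium. The growth and treatment protocols refer to Coriell and give a density per ml, and the identity of the cells was not tested from these peaks. The cells received 10 µM D,L-sulforaphane for 5 h (2 samples) or 0.1% DMSO alone (2 samples), and DNA was recovered with an antibody against NRF2. In 1 further vehicle sample it was recovered with IgG, for 5 samples in all, and nothing in the labels says that samples came from separate cultures. Each treatment has 1 deposited peak list, so there are no values per sample, no spread between replicates and no test between treatments, and all positions are in the genome build hg19. The caller kept 7448599 of 23090154 SFN tags (32.3%) and 1459665 of 11377334 vehicle tags (12.8%), a ratio of usable depth of 5.10.

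NRF2 is a transcription factor that is held low by KEAP1 in resting cells and accumulates when electrophiles such as sulforaphane modify KEAP1. It binds the antioxidant response element together with small MAF proteins and raises the transcription of genes for glutathione synthesis, thioredoxin reduction, quinone reduction and heme breakdown. Several of its target genes carry more than 1 element, at the promoter and at enhancers some way off, so neighbouring bound sites at 1 gene are a known feature of its targets. Neighbouring peaks can also arise where a sequence is present in many copies, as in the satellite DNA beside centromeres, near chromosome ends, in duplicated gene families and in copies of mitochondrial DNA in the nuclear genome, because short tags from all copies are placed among few mapped positions.

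No genome sequence of the files' build was used, so the DNA under the peaks is not shown. Printed first is a stretch upstream of a RefSeq start of TXNRD1, the gene of thioredoxin reductase 1, because 1 of the SFN groups lies at this gene. It is at chr12:104215630-104215738 of GRCh38.p14, plus strand, from RefSeq, and the capitals mark a match to the core of the antioxidant response element, written TGACNNNGC, whose first base is 99 bases before the start. This window is not the sequence under the 2 peaks at the gene, and its distance to them was not determined since the builds differ.
TXNRD1: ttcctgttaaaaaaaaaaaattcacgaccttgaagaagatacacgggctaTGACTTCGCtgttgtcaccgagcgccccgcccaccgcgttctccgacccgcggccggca
On either strand the core was found in 4687 of 35116 RefSeq promoter windows of 300 bases (13.3%), so a match alone is common. Of 12 genes at or beside SFN groups with low or partly low control, 8 had a window. Both windows of TXNRD1 held the core, as did those of TBXAS1 and PPIF, and those of ILRUN, ADARB2, AKR1C4, ADAM12 and MICAL3 did not hold these letters.

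Printed next are stretches from promoter windows of FAM157 long noncoding RNA genes, which lie near chromosome ends in near-identical copies. They are shown because 4 SFN groups lie at or beside these genes. The place of these stretches relative to the gene starts and to the peaks was not determined. These 3 stretches are from RefSeq windows of GRCh38.p14, at chr3:198152994-198153087 (plus strand), chr9:138216811-138216905 (plus strand) and chr7:35660-35754 (minus strand). Capitals mark bases that differ from, or are added to, those of FAM157A.
FAM157A: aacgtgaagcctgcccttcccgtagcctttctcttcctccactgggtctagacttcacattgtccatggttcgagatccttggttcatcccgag
FAM157B: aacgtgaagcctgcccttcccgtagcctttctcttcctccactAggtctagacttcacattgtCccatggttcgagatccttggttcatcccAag
FAM157D: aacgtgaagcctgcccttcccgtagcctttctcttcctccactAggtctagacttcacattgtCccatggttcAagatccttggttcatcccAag
Over this stretch FAM157B was 96.8% and FAM157D 95.8% identical to FAM157A. Over the longest stretch that FAM157A and FAM157D share in their windows, 257 of 263 aligned positions (97.7%) were identical.

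Each peak has a height, which is the number of tags piled at its summit, and a fold over the local control as the authors' caller gave it. From these the caller's local control level was computed back, and it is written here relative to the genome average (1 means the average). A level under 3 is called low here. By this level the SFN groups fell into 16 with every member low, 47 with every member at 3 or more and 10 with members on both sides. The vehicle groups fell into 33, 44 and 2. When peaks above a q of 1e-05 were left out, there were 9 SFN groups and 1 vehicle group with every member low. Of single members, 42 of 178 SFN peaks (23.6%) and 73 of 193 vehicle peaks (37.8%) were low, where 41.1% of all SFN and 58.5% of all vehicle peaks on these chromosomes were low.

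The places named below were assigned from general knowledge of the human genome map, after positions and values had been seen, and not from an annotation of the build. By that assignment 35 SFN groups with 90 members lay beside centromeres, 6 groups (15 members) at nuclear copies of mitochondrial DNA, 6 (13) at genes of small noncoding RNAs, 6 (16) near chromosome ends, 3 (6) in the duplicated region 1q21, 1 (4) in that of 22q11, 2 (4) at known NRF2 target genes and 8 (16) at other genes with low control (1 of these 8, ADAM12, only in part), with 6 groups (14 members) elsewhere. In the vehicle list 33 groups (88) lay beside centromeres, 6 (15) in 22q11, 4 (9) in 1q21, 3 (7) near chromosome ends, 2 (5) at globin genes, 3 (8) at other genes and 28 (61) elsewhere. Of those 3, the group at CLPTM1L had low control throughout, and DOCK8 and COL4A2 each had 1 member above the limit. Groups counted as elsewhere were mostly placed by chromosome band alone and may also lie within genes. The counts of 8 and 3 at other genes therefore do not compare the lists. No vehicle small group was assigned to a known NRF2 target, a small noncoding RNA gene or a nuclear copy of mitochondrial DNA. Since 28 vehicle groups were placed elsewhere, mostly by band alone, whether any lies at such a place was not determined.

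The highest fold among all SFN small groups was at HMOX1, the gene of heme oxygenase 1, which breaks down heme and is a textbook NRF2 target. The group at chr22:35767885-35773294 had 2 peaks upstream of the gene, where a pair of distal enhancers with antioxidant response elements is known. The peak farther from the gene had 67 tags and a fold of 34.5 at a control level of 2.30, and the nearer one 46 tags and a fold of 26.9 at 1.77. Their summits were 5027 bp apart, and their widths of 388 and 417 bp were alike. In no other low-control SFN group did the lower member exceed 19 tags. Neither HMOX1 peak overlapped a vehicle peak, where 27 of all 724 low-control SFN peaks did.

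TXNRD1, whose product reduces thioredoxin with electrons from NADPH, held the next highest fold. At chr12:104613145-104614015 the first peak had 41 tags and a fold of 25.7 and the second 8 tags and a fold of 5.02, with summits 599 bp apart. This was the most uneven pair with low control, with a height ratio of 5.12, where the median over the 16 low-control SFN groups was 1.30. No vehicle peak lay in the span, and only 27 of all 724 low-control SFN peaks overlapped one. Of 40 genes of the antioxidant programme and 5 genes with known distal enhancers that were looked for, small groups were assigned to HMOX1, TXNRD1, PVT1 and ZMIZ1, with no annotation to search by. These gene lists were chosen with earlier results of these data known, so the assignments are a description and no independent finding.

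At other genes the pairs with low control were lower and mostly more even than at TXNRD1. Past the end of ZMIZ1, a coregulator of nuclear receptors, and before PPIF, the gene of cyclophilin D of mitochondria, the group chr10:81077460-81081219 had 25 and 19 tags (folds 15.2 and 11.8) 3464 bp apart. Within PVT1, a long noncoding RNA gene beside MYC in a region known for enhancers of MYC, chr8:128863717-128867062 had 17 and 29 tags (folds 8.48 and 14.9) 2972 bp apart. Between AKR1C4, of the aldo-keto reductase cluster whose other members include known NRF2 targets, and UCN3, chr10:5326470-5333879 had 20 and 13 tags (folds 14.8 and 7.80) 7160 bp apart. In each of these pairs the higher member was at most 1.71 times the lower.

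Within ILRUN, a regulator of interferon and inflammatory signalling, both peaks of chr6:34625188-34632356 had 18 tags (folds 12.8 and 12.6), 6900 bp apart. Within MICAL3, an actin-modifying oxidoreductase, chr22:18359264-18360376 had 16 and 14 tags (folds 10.7 and 7.28) 756 bp apart. Within TBXAS1, the gene of thromboxane synthase, chr7:139614110-139616076 had 15 and 12 tags (folds 8.84 and 8.09) 1738 bp apart. Heights in these 3 pairs were equal or nearly so. Within ADARB2, a gene of the RNA-editing family without known editing activity, chr10:1281546-1282318 had only 7 and 11 tags. At ADAM12, a membrane metalloprotease gene, the group chr10:127887890-127893101 had 17 and 11 tags (folds 7.74 and 7.86) with 1 member above the limit of low control.

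**Figure D1:**
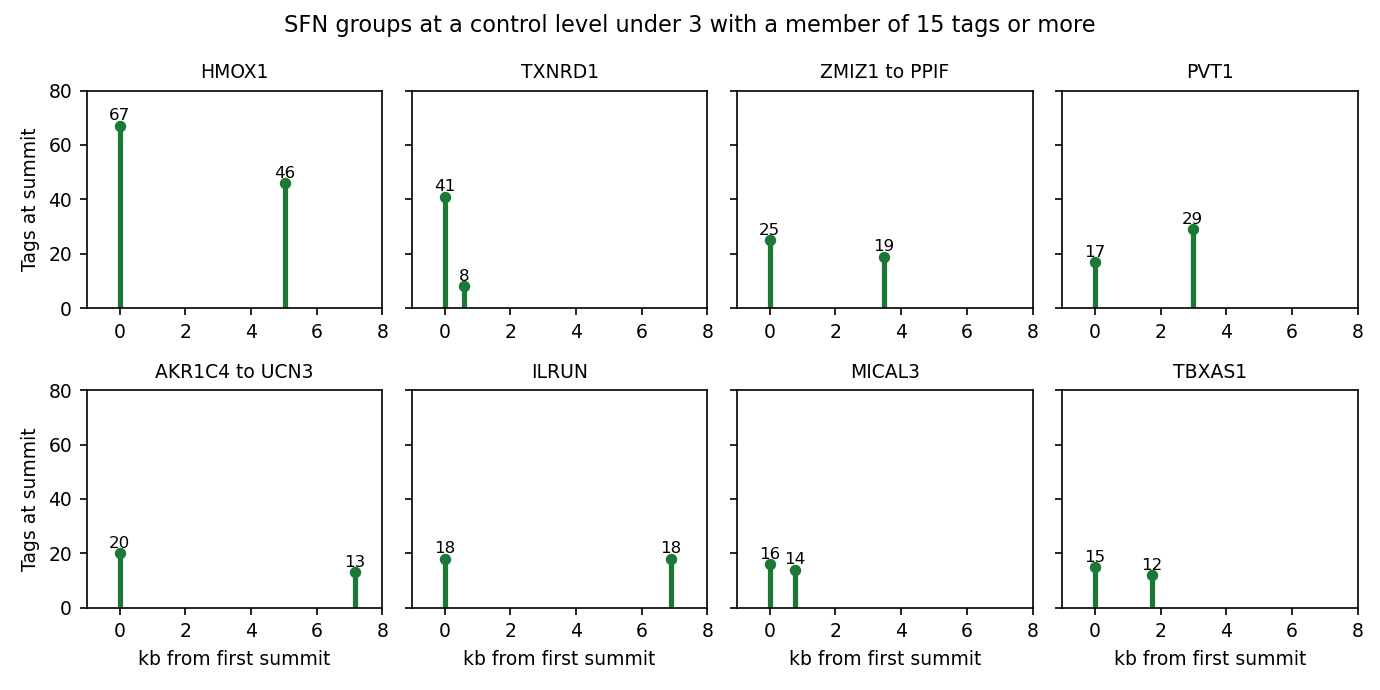
Height (tags at the summit, vertical axis) of each peak against its distance in kb from the first summit (horizontal axis), for the 8 SFN groups with every member at a control level under 3 and a member of 15 tags or more, a display limit chosen after the data were seen. HMOX1 holds the highest pair (67 and 46 tags), TXNRD1 the most uneven (41 and 8), and ILRUN an equal pair (18 and 18).

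Of the 16 low-control SFN groups, 11 had a member of 10 tags or more and 5 had none, and heights over their 32 members ran from 6 to 67 tags with a median of 11. Beside the groups at genes, the 16 included 3 pairs in 1q21, of which chr1:144167056-144177229 had 10 and 11 tags 10016 bp apart, the widest spacing with low control. No member of the 11 groups that reached 10 tags overlapped a vehicle peak, where 27 of all 724 low-control SFN peaks did. Between the members of this 1q21 pair lay 1 vehicle peak. The absence of a vehicle peak is the absence of a call at the lower depth. Scaled to the vehicle depth, under the untested assumption that both precipitations were equally efficient, the HMOX1 peaks would have 13.1 and 9.01 tags, the higher TXNRD1 peak 8.03 and the higher PVT1 peak 5.68. These were the 4 of 32 members that would reach the 5 tags that were the median of low-control vehicle peaks, whose lowest height was 3 tags. The only low-control SFN group that was shared lay between PLCB1 and PLCB4 at chr20:8996166-8996629, with 6 and 9 tags 315 bp apart, and both members overlapped the same vehicle peak of 9 tags.

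A further set of SFN groups lay at genes of small noncoding RNAs, most of them made by RNA polymerase III. The highest was at the vault RNA genes VTRNA1-1 and VTRNA1-2, whose RNAs are part of vault particles. That group, chr5:140090692-140098539, had 28 and 18 tags (folds 14.7 and 6.66) 7617 bp apart, at control levels of 2.30 and 4.39. The U3 small nucleolar RNA genes, which serve in ribosomal RNA processing and stand in several near-identical copies, held a pair at SNORD3B-1 and SNORD3B-2 (chr17:18964949-18967629, 15 and 13 tags, 1878 bp apart) and a pair at SNORD3A (chr17:19091254-19093723, 12 and 12 tags, 1986 bp apart). The 2 U3 pairs were thus of like height and spacing.

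Transfer RNA genes held a low-control pair in the cluster of 6p22 (chr6:27470607-27471568, 7 and 10 tags, folds 5.63 and 7.74, 727 bp apart) and a pair in 12q24 (chr12:125424189-125424797, 10 and 9 tags, 449 bp apart). The snaR genes of 19q13, a primate-specific family with 26 copies on chromosome 19 in the RefSeq table, held 3 peaks at chr19:48421332-48437583 with 24, 18 and 17 tags (folds 9.39, 5.62 and 3.82). Their summits were 5348 and 10413 bp apart, the second being the widest spacing in either list. No vehicle peak lay in any of the 6 spans, where 33.2% of all SFN peaks overlapped a vehicle peak. At low control 27 of all 724 SFN peaks did. At a control level of 3 or more, 557 of all 1037 did, and 44 of 136 in small groups. The peaks at small noncoding RNA genes lay on both sides of that limit. Heights in this class were at most 28 tags, which scale to 5.49 tags at the vehicle depth, so the lack of vehicle calls was not tested.

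The 6 groups at nuclear copies of mitochondrial DNA, with 15 members, were also without any vehicle peak. At a control level of 3 or more, 557 of all 1037 SFN peaks and 44 of 136 in small groups were shared. The part of the lower vehicle depth in this absence was not tested. The most prominent was at the start of chromosome 1, chr1:564386-570371, where a long recent copy is known, with 129, 149 and 169 tags at control levels of 48.3, 69.0 and 61.5. The groups at MTRNR2L2 (chr5:79946295-79947509, 34 and 64 tags) and MTRNR2L1 (chr17:22020583-22022805, 36 and 10 tags), both copies of the mitochondrial 16S ribosomal RNA gene, were lower. In 5q21, chr5:99382063-99388174 had 4 peaks of 35, 18, 25 and 13 tags with folds of 9.87, 7.34, 4.51 and 6.02. A pair of short groups, whose assignment is less sure, were chr17:51183246-51183837 (27 and 34 tags) and chrX:125606481-125607010 (35 and 26 tags).
The SFN file also called 1 peak on the mitochondrial chromosome itself, 16635 bp wide with 265 tags, a fold of 7.62 and a control level of 80.3, and the vehicle file called none. All 6 nuclear groups had every member at a control level of 3 or more. The share of mitochondrial DNA in each library was not measured here, and its part in these groups was not tested.

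Near chromosome ends, 3 of the 6 SFN groups lay at FAM157 genes. At FAM157A, chr3:197895485-197900962 had 4 peaks of 23, 24, 28 and 27 tags (folds 5.74, 4.14, 7.41 and 13.6). The group at FAM157B, chr9:141121825-141123805, had 22 and 30 tags (folds 6.80 and 9.94). At FAM157C, chr16:90183152-90184820 had 23 and 23 tags (folds 7.09 and 8.41). All 8 peaks thus had 22 to 30 tags on 3 chromosomes, and the last at FAM157A overlapped a vehicle peak, of 8 tags.
At the start of chromosome 7, where the RefSeq table lists FAM157D among the first genes, chr7:9903-20539 had 40 and 26 tags (folds 14.4 and 6.46), and the first overlapped a vehicle peak of 13 tags. At the start of chromosome 18, chr18:106891-110413 had 45, 124, 87 and 57 tags but folds of only 1.95 to 2.77, which include the lowest fold of any small group in either list, with 1 member shared. Short tags of near-identical copies can be placed at another copy, and which FAM157 copy these tags came from was not tested.

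Groups beside centromeres held the highest peaks and most of the overlap. The group at 10q11, chr10:42596700-42600579, had 237, 161, 156 and 186 tags at control levels of 94.1 to 131, and the vehicle list had 123, 80, 38 and 102 tags over nearly the same span. The first-to-last summit distance was 2725 bp in the SFN list and 2730 bp in the vehicle list. Folds were 3.03 to 4.22 in the SFN list and 5.84 to 10.2 in the vehicle list, so heights were higher but folds lower in the SFN list. All 8 peaks overlapped the other list, although not one to one, since the second SFN peak overlapped both the second and the third vehicle peaks.

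On 9q, each of 3 groups had nearly the same internal distance in the SFN list as in the vehicle list. The first and the third also matched each other to within 30 bp in each list, and the distance at the second was longer. The first, chr9:66970919-66973786, had 173 and 71 tags 2390 bp apart in the SFN list, and 88 and 34 tags 2420 bp apart in the vehicle list. The third, chr9:69708557-69711365, had 60 and 170 tags 2389 bp apart, and 33 and 86 tags 2403 bp apart in the vehicle list. The order of high and low was thus reversed between these places, and the same order was seen in both lists at each.
The second, chr9:67318143-67321011, had 64, 21 and 143 tags with 2509 bp from first to last, and the vehicle list had 23 and 51 tags 2503 bp apart there. The SFN peak of 21 tags in the middle had no vehicle counterpart. Control levels followed the heights at all 3 places, with 79.1 and 41.4, 28.9 and 80.9, and 35.8 and 86.0 for the outer SFN peaks in order.

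**Figure D2:**
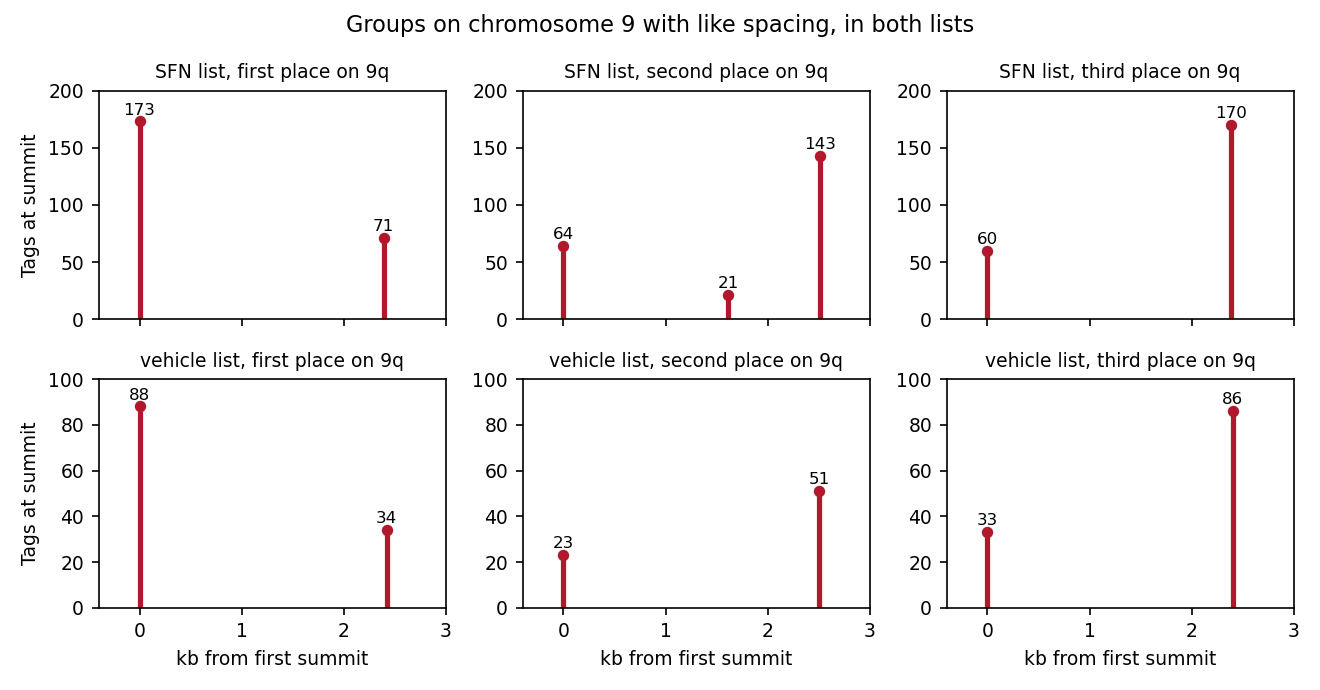
Height (tags at the summit, vertical axis, with a different scale for each list) against distance in kb from the first summit (horizontal axis) at 3 places on 9q, SFN list above and vehicle list below. At each place the outer peaks lie about as far apart in the SFN list as in the vehicle list. The first place has its higher peak on the left (173 tags) where the third has it on the right (170 tags).

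Equal steps were also seen within groups. In 4q11, chr4:52660709-52665280 had 3 SFN peaks of 26, 27 and 22 tags whose summits were 2209 and 2210 bp apart, and none overlapped a vehicle peak. In the vehicle list, 4 peaks of 5q11 at chr5:49433322-49441321 with 17, 15, 18 and 21 tags were 2562 and 2551 bp apart for the first steps and 2726 bp for the last, and all 4 overlapped SFN peaks. When distances of at least 1000 bp between summits were matched to within 30 bp, limits set after the data were seen, the SFN list had 3 matches between groups of 1 chromosome and 1 within a group, and the vehicle list 6 and 1. Some may be coincidence, such as the match on chromosome 7 between a group of 7q11 and that of TBXAS1 (1722 and 1738 bp), and chance was not tested.

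The other SFN groups of 4 lay mostly beside centromeres or in duplicated regions, with 1 to 3 of 4 members shared in each. Beside centromeres, 6p11 (chr6:58773633-58780180) had 75, 71, 185 and 85 tags, 7q11 (chr7:61083523-61090290) 48, 43, 21 and 20, and 8q11 (chr8:46872245-46882933) 44, 31, 25 and 29. There were 33, 29, 41 and 33 tags in 14q11 (chr14:19004144-19019243) and 28, 20, 38 and 42 in 21p11 (chr21:10795718-10807831). In these 5 groups the highest member was at most 2.61 times the lowest.
Elsewhere, 4q13 (chr4:68264538-68266654) had 62, 94, 57 and 57 tags, and 22q11 (chr22:18868689-18884012) 9, 47, 73 and 60. The latter had the highest ratio of heights in the SFN list, 8.11, through its first and only unshared peak. The group at 5q11 outside the centromeric region, chr5:54038256-54040480, had 10 and 31 tags (folds 6.12 and 13.8), neither shared.

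In the vehicle list the highest folds were at the α-globin genes HBA2 and HBA1, which encode the same protein in near-identical copies and are known from red blood cell precursors. The pair chr16:222887-227485 had 69 and 71 tags with folds of 47.7 and 41.7, 3804 bp apart, and widths of 788 and 793 bp. At the β-globin genes HBB and HBD, chr11:5246726-5255446 had 16, 8 and 5 tags (folds 15.7, 7.79 and 4.97), with the second summit 1028 bp and the third 8544 bp from the first. These were 2 of the 12 vehicle groups with a member at a fold of 10 or more, and the α-globin pair was the only one with every member there. None of the 5 globin peaks overlapped an SFN peak, although the SFN list had the greater depth. For the low-control β-globin peaks this was the usual case, since 25 of all 1189 low-control vehicle peaks overlapped one. Of all vehicle peaks not at low control, where the α-globin pair lies, 629 of 844 did, and 67 of 120 in small groups. At the SFN depth the α-globin peaks would scale to more than 306 tags, the most that a position can hold. That limit follows from 1 tag per position and strand. This scaling assumes equally efficient precipitations, which was not tested. Control levels were 5.61 and 8.73 at α-globin and at most 2.49 at β-globin, and the source of this DNA was not tested.

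Other vehicle groups with high folds or 4 members lay mostly beside centromeres, and most had members shared with the SFN list. The highest peak was in 1p11, where chr1:121478535-121485513 had 25, 14 and 188 tags and the SFN peaks that overlapped them had 59, 41 and 287, among 5 SFN peaks in that span. Its height ratio of 13.4 was the highest of either list. All 4 members were shared at 2q21 (chr2:132995031-133002500, 15, 24, 16 and 11 tags) and 16p11 (chr16:33887534-33899893, 22, 17, 10 and 17 tags). At 10p11 1 group had none shared, chr10:39144611-39152187 with 9, 11, 18 and 8 tags, and 1 had a single one, chr10:38873782-38882111 with 9, 15, 16 and 19.
At 9q, chr9:66833053-66835446 had 37, 49, 26 and 18 tags and chr9:69989417-69993778 had 18, 20, 15 and 17, with 3 of 4 shared in each. In 1p11, chr1:121352229-121358975 had 25, 22, 16 and 14 tags (3 shared), and in 10q11, chr10:42810476-42818050 had 7, 10, 17 and 18 (2 shared). Pairs or trios named for their fold were at 2p11 (chr2:90385824-90394476, 16 and 22 tags), 10p11 (chr10:38778104-38783921, 20 and 8), 9q21 (chr9:72653121-72653665, 32 and 15) and the end of 1p36 (chr1:725057-727113, 11, 12 and 15).

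Vehicle groups with low control were made of low peaks. Over their 69 members heights ran from 3 to 16 tags with a median of 5, and 65 had 3 to 6 tags. Only 1 member, the first β-globin peak, reached 10 tags. In low-control SFN groups 19 of 32 members did as called, but scaled to the vehicle depth their median was 2.16 tags and 4 of 32 had 5 or more. After β-globin the highest were CLPTM1L (chr5:1327236-1328286, 5 and 8 tags) and 19p13 (chr19:564161-565083, 7 and 5 tags). Of the 69, 45 had the narrowest width the caller gives, which equals the fragment length of 154 bp. None of the 69 overlapped an SFN peak, where 25 of all 1189 low-control vehicle peaks did. No test was made between the lists, since height depends on depth.

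**Figure D3:**
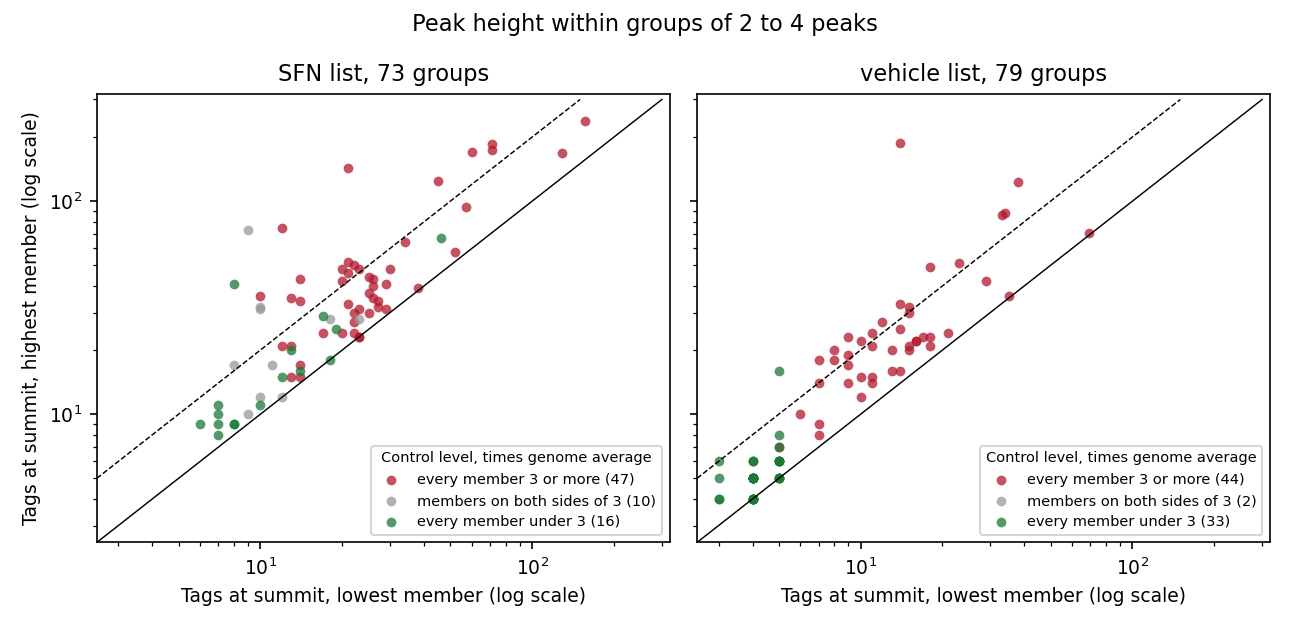
Height of the highest member (vertical axis, tags at the summit, log scale) against that of the lowest member (horizontal axis, log scale) of each group, with 73 SFN groups on the left and 79 vehicle groups on the right, coloured by control level. The solid line marks equal heights and the dashed line a ratio of 2, and the low-control vehicle groups gather at 3 to 8 tags apart from 1 group that reaches 16, and low-control SFN groups, at greater depth, reach 67.

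Heights within a group differed more in larger groups. The ratio of highest to lowest member had a median of 1.5 in the SFN list, was under 1.5 in 36 of 73 groups and 2 or more in 21. In the vehicle list the median was 1.35, with 47 of 79 under 1.5 and 20 at 2 or more. Groups of 2 had medians of 1.36 (SFN) and 1.25 (vehicle), and groups of 4 had 2.1 and 2.19, as the ratio of extremes can only widen with more members. Low counts allow few ratios, and 11 vehicle groups and 4 SFN groups had members of exactly equal height. The median height of an SFN member was 25 tags (6 to 237), with 31 in high-control groups, and of a vehicle member 10 tags (3 to 188), with 17 in high-control groups. A fold of 10 or more was reached by 15 of 178 SFN members, where 8.75% of all SFN peaks reached it, and by 14 of 193 vehicle members, where 4.72% of all vehicle peaks did. The SFN members with such a fold lay in 12 groups, of which 3 had every member there: HMOX1, the ZMIZ1 pair and ILRUN. Outside small groups, such folds were reached by 138 SFN and 15 vehicle peaks standing alone. In groups of 5 or more they were reached by 1 SFN and 67 vehicle peaks. The fold rises with the height, which depends on depth, so a fold of 10 is not an equal limit in both lists. These counts therefore do not compare the treatments.

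Neighbouring summits were a median of 2045 bp apart in the SFN list (interquartile range 924 to 5019, range 211 to 10413, 105 pairs) and 1867 bp in the vehicle list (724 to 3549, 134 to 8941, 114 pairs). Of these, 29 SFN and 42 vehicle pairs were under 1000 bp apart. By control level the SFN median was 1247 bp for low and 1978 bp for high, and the vehicle median 2366 and 1867 bp, so the order differed between the lists. The spread was wide in every class, and no difference was tested. The joining gap fixes the upper end: the widest gaps inside SFN groups were 9894, 9859 and 9666 bp and the narrowest just outside 10223, 10231 and 10312 bp, with 40 gaps between the limit and 2 times the limit. In the vehicle list the values were 8763, 8328 and 8305 bp inside, 10234, 10278 and 10484 bp outside, and 31 gaps.

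**Figure D4:**
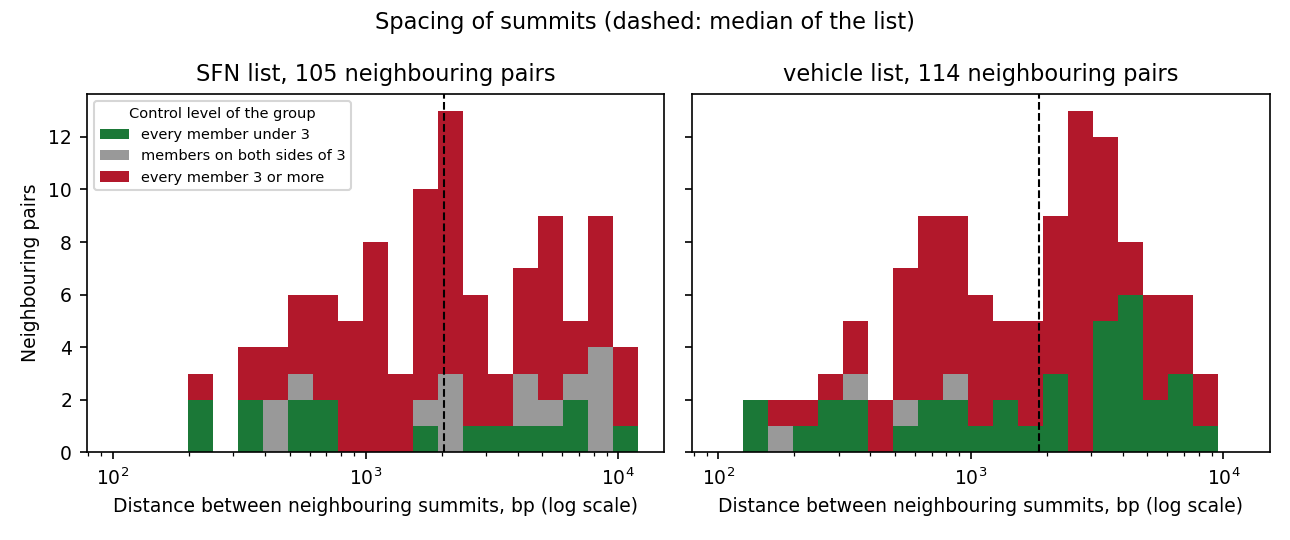
Number of neighbouring pairs (vertical axis) by the distance between their summits in bp (horizontal axis, log scale), stacked by the control level of the group, for 105 SFN and 114 vehicle pairs. Dashed lines mark the medians of 2045 and 1867 bp, and low-control pairs are spread over the whole range in both lists.

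Peaks were counted as shared at an overlap of 1 bp or more with any peak called in the other treatment. Of SFN small-group members 47 of 178 were shared (26.4%, exact Clopper-Pearson 95% interval 20.1 to 33.5), where 33.2% of all SFN peaks on these chromosomes were. Of vehicle members 67 of 193 were shared (34.7%, 28.0 to 41.9), where 32.2% of all were. These shares were near the background of each list and lay between those of peaks standing alone, 7.91% (6.22 to 9.89) and 6.26% (5.00 to 7.74), and those of groups of 5 or more, 66.9% (63.3 to 70.4) and 90.1% (87.3 to 92.4). Peaks of 1 group are not independent, intervals cover counting error alone, and no difference was tested.

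**Figure D5:**
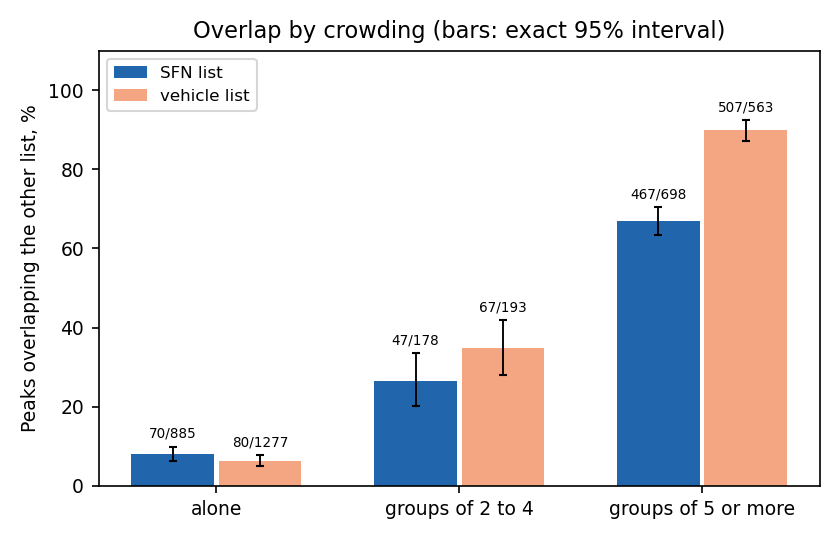
Share of peaks that overlap the other list (vertical axis, percent) for peaks standing alone, in groups of 2 to 4, and in groups of 5 or more, with counts and exact 95% intervals. Groups of 2 to 4 lie between the other classes in both lists, at 26.4% and 34.7%.

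The share followed control level and group size. In groups with every member at high control, 39 of 121 SFN members (32.2%) and 67 of 118 vehicle members (56.8%) were shared, against 2 of 32 and 0 of 69 in low-control groups. Over all peaks on these chromosomes, 53.7% of SFN and 74.5% of vehicle peaks at high control were shared, and 27 of 724 and 25 of 1189 at low control. The low-control counts were thus near the background, and the high-control shares were under it. That background includes the crowded groups. Counted peak by peak at high control, 32.4% of SFN and 55.8% of vehicle small-group peaks were shared. Those standing alone were shared in 21.7% and 32.2%, and those in groups of 5 or more in 67.8% and 91.7%. For 0 of 69 the exact interval reaches 5.21%. By size, SFN members of groups of 2, 3 and 4 were shared in 20.2%, 23.3% and 43.2%, and vehicle members in 23.1%, 31.1% and 70.0%. Beside centromeres 34 of 90 SFN members and 52 of 88 vehicle members were shared. Within 5 Mb of a group of 5 or more peaks, a window set after the data were seen, lay 35 SFN and 35 vehicle small groups, of which 0 and 7 had low control throughout. These classes overlap one another, since the groups of 4 lay mostly at high control, and their parts were not separated.

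Whole groups were seldom the same in both lists. At least 1 member was shared in 30 SFN and 33 vehicle groups, and every member in 7 and 14. By span, 17 pairs of an SFN and a vehicle small group overlapped, and 5 of these pairs had every member of both shared: the 10q11 group, the first and the third of 9q, 8p11 (chr8:43760535-43761823, 38 and 39 tags against 14 and 16, with summits 1019 and 1015 bp apart) and 1q42 (chr1:224199525-224201666, 27 and 32 tags against 9, 10 and 23). All 5 had high control. The 1q21 pair with low control overlapped a vehicle group in span with no peak shared. Other vehicle groups fell within SFN groups of 5 or more (12) or on SFN peaks standing alone (5), and 12 SFN groups fell on vehicle peaks standing alone.

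At the 47 shared SFN members, SFN height over vehicle height had a median of 2.5 (interquartile range 1.99 to 2.79, range 0.667 to 5.14), and 1 of 47 reached the depth ratio of 5.10. The median over all 584 shared SFN peaks was 2.42. These members had to reach the height of a call in the shallower vehicle list, which favours low ratios, so the ratio is not a measure of change. The SFN fold was the higher one at 5 of the 47, with a median ratio of folds of 0.635. Folds passed the same selection, so their ratio is not a measure of change either. For shared SFN peaks standing alone it was 1.12 (higher at 38 of 70), and in groups of 5 or more 0.581 (18 of 467).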

How the data were processed

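The tools named are CASAVA 1.4, BWA and MACS2, and the build is hg19, per the submitters' processing notes. Per the file headers, each peak list was called with MACS 2.1.0.20140616 at a q cutoff of 0.05 against 1 control named for input and IgG (28125771 kept tags), with tags of 36 bp, at most 1 tag per position, fragments of 153 bp (SFN) or 154 bp (vehicle) and a genome size of 2700000000 bp. Pooling of the samples before calling is not stated in the sources used here. The authors deposited, for each peak, a signal (tag pileup at the summit), a fold (ratio over local control), and −log10 p and −log10 q values. The p and q values were used only within a list, while heights and folds were also set beside each other at shared peaks. The local control level is (pileup + 1) / fold − 1, divided by the genome average of 0.422 tags (SFN) or 0.0833 (vehicle).

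Peaks were grouped and compared with Python 3.11.15, pandas 2.3.3, numpy 2.4.6, scipy 1.17.1 and Biopython 1.88, and plotted with matplotlib 3.10.9. The grouping was tested on simulated data. The members and gene lists were chosen with earlier results of these data known. Groups were named by rule: the 12 with the highest fold in each list, low-control groups reaching 10 tags (SFN) or 7 tags (vehicle), all groups of 4, groups with every member shared both ways, and groups at listed genes. The groups at small RNA genes, mitochondrial copies, FAM157B and FAM157C, PLCB1, ADAM12, the second place of 9q and 4q11 were named after their values were seen. Places come from general knowledge of the hg19 map, assigned after the values were seen and looked over against names and gene order in the RefSeq table of GRCh38.p14. They are not a measured annotation, and the class of genes with low control used the control level. The scaling between depths was also chosen after the data were seen. A genome sequence or annotation of hg19 was not used here, and no separate analysis of the IgG sample was made.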

Additional observations from a re-analysis of the deposited data

How the results depend on the processing

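Over 7 alternative settings, 38 values were recomputed, of which 7 moved, counts by more than 1.5 times and shares or medians out of their 95% interval. With a joining gap of 5000 bp the median SFN spacing was 1625 bp (reported 2045), and 43.3% of vehicle members were shared (reported 34.7). The share over all vehicle peaks, 32.2%, does not depend on the gap. When peaks above a q of 1e-05 were left out, SFN members were shared in 36% (reported 26.4) and vehicle members in 57.4%, low-control SFN groups numbered 9 (reported 16), vehicle groups 36 (reported 79) and low-control vehicle groups 1 (reported 33). This setting leaves fewer peaks by construction, and the cause of the other shifts was not tested. The share over all peaks was not recomputed at this q, so whether the small groups stayed near the background there is not known. Low-control SFN groups numbered 24 with a gap of 20000 bp and 23 with a low-control limit of 5, within that bound, and low-control vehicle groups 36 in both. A stricter overlap or summits within 100 bp moved no share out of its interval. The share of summit windows with the antioxidant response element, and its narrower window, could not be computed without the genome. No paired analysis was possible because no list gives values by sample, and for the same reason no replicate could be left out. The depth of 1459665 kept vehicle tags limits any statement on groups missing from the vehicle list.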
